A study of Mus musculus with 8 samples.

Results

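The transcripts described here encode 9 digestive proteases of the mouse pancreas, chosen by symbol as the trypsin (Prss2 and Try5), chymotrypsin (Ctrb1 and Ctrl), elastase (Cela1, Cela2a and Cela3b) and carboxypeptidase (Cpa1 and Cpb1) zymogens, and all 9 were found among the 15047 gene symbols of the expression data. Pancreas RNA of 8 male mice was profiled by RNA-Seq. The LFD group (n = 3) and the HFD group (n = 3) were wild-type C57BL/6 mice that received a low-fat diet or a high-fat diet, with 60% of calories from fat in the latter, starting at 4 weeks of age and lasting 10 weeks, and served as lean mice and as a model of diet-induced obesity. The ob/ob group (n = 2) was C57BL/6J mice that lack leptin and received standard chow, so that in these mice genotype and diet differ together from LFD. According to the study's text, all of these mice carried mT organoids, which are tumour organoids from a mouse model of pancreatic cancer that uses Pdx1-Cre, injected into the pancreas, whereas the sample labels name the pancreas only and leave the age at collection open.

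Acinar cells make up most of the pancreas and release digestive enzymes into the duct. The proteases among these are made as inactive zymogens, packed with amylase and lipases into zymogen granules, and become active in the gut, where enteropeptidase cuts trypsinogen and trypsin then cuts the other zymogens. Trypsin, chymotrypsin and elastase cut proteins internally, each with its own preference for residues, and carboxypeptidases remove residues from the end. Premature activation inside the pancreas is known from pancreatitis, and loss of zymogen transcripts is known from the change of acinar cells to a duct-like state.

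The 9 proteases were among the most abundant transcripts of every mouse. Expression is given as rlog values, which are gene counts on the log2 scale corrected for library size, and a difference of 1 is a doubling. By rlog value, not corrected for length, none ranked below place 24 of the 15047 genes in any mouse. On the linear scale the 9 proteases made up 20.3%, 21.2% and 20.3% of the summed values of LFD replicates 1 to 3. Among HFD mice, named in the same order, this share was 21.7%, 15.4% and 7.43%, and among ob/ob mice 20.4% and 8.34%. Digestive enzymes are a large part of this sum, so where they fall, the share of other genes rises even at an unchanged rlog value. Sequencing depth is unknown here, so the spread between mice is the only error. In tissue RNA, fewer acinar cells, a larger share of transplanted or other tissue, and less RNA per acinar cell cannot be told apart.

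Prss2, the major anionic trypsinogen, lies on chromosome 6 (GRCm38, chr6:41521787-41525079, plus strand). Its rlog values were 20.47, 20.69 and 21.13 in the LFD mice, 21.19, 18.86 and 16.91 in the HFD mice and 20.46 and 17.25 in the ob/ob mice. HFD replicate 1 was above all LFD mice, ob/ob replicate 1 was just below the lowest of them, and the other 3 obese mice were far lower. Against the LFD mean, Prss2 was 3.73-fold lower in HFD replicate 2, 14.5-fold lower in HFD replicate 3 and 11.5-fold lower in ob/ob replicate 2 on the rlog scale. The size of such folds depended on the scale, as the drop in the share of the summed linear values given above, from 20.3% or more in LFD mice to 15.4%, 7.43% and 8.34% in these 3 mice, was smaller. Try5, a further trypsinogen on chromosome 6 (chr6:41311233-41316841, minus strand), had rlog values of 18.55, 18.80 and 19.35 in LFD, 19.35, 17.59 and 15.15 in HFD, and 18.62 and 15.52 in ob/ob mice. The same 3 obese mice were lowest, and ob/ob replicate 1 lay inside the LFD range for this gene alone.

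The trypsinogen genes resemble each other so closely that reads may be shared among them by the quantification. Of the 31-base words in the annotated transcripts of Try5, 60.9% also occur in transcripts of other genes and 51.0% in those of Try4, and for Prss2 the share with any other gene is 22.5%. The coding sequences of Prss2 and Try5 are 90.4% identical and those of Try5 and Try4 97.4%. The first 75 coding bases are printed because they hold the site that makes a trypsinogen, in capitals, namely the codons of the aspartate run and of the lysine after which enteropeptidase cuts. They are from the Gencode M21 transcripts, and position 1 is the first coding base.
Prss2 coding start: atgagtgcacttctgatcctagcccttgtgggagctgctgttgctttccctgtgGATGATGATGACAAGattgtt
Try5 coding start: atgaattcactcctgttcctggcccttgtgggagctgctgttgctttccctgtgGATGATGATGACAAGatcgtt
Try4 coding start: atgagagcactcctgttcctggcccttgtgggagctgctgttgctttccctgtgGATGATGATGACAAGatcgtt
2210010C04Rik coding start: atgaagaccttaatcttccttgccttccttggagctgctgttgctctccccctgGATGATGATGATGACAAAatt
The run spans positions 55 to 69 in Prss2, Try5 and Try4, with 4 aspartate codons, and positions 55 to 72 in 2210010C04Rik, a trypsinogen of 5 aspartate codons. Try5 differs from Prss2 at 6 and Try4 at 5 of the 75 bases. Values of Try5 and Try4 are therefore uncertain as to which of them gave the reads, whereas no 31-base word of Ctrb1, Ctrl or Cpa1 was found in another gene.

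Ctrb1, chymotrypsinogen B, and Ctrl, a chymotrypsin-like protease, both lie on chromosome 8 (chr8:111686519-111691010 and chr8:105932003-105933862, both minus strand). Ctrb1 had rlog values of 19.86, 20.10 and 20.20 in LFD, 20.01, 18.20 and 16.11 in HFD, and 19.49 and 16.57 in ob/ob mice. For Ctrl they were 18.90, 19.21 and 19.20 in LFD, 19.05, 16.96 and 15.05 in HFD, and 18.35 and 15.34 in ob/ob mice. HFD replicate 1 lay inside the LFD range for both, and both ob/ob mice were below it.

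Of the elastases, Cela1 lies on chromosome 15 (chr15:100674421-100687921, minus strand), and Cela2a and Cela3b lie on chromosome 4 (chr4:141814962-141826160, with 16.6% of its 31-base words shared with Ctrc, and chr4:137420999-137430540, both minus strand). Cela1 had rlog values of 20.37, 20.54 and 20.83 in LFD, 20.70, 18.28 and 16.46 in HFD, and 19.59 and 16.58 in ob/ob mice. Cela2a had 20.76, 21.13 and 21.48 in LFD, 21.16, 18.90 and 17.03 in HFD, and 20.23 and 17.26 in ob/ob mice. In ob/ob replicate 1 both stood further from the LFD mean than the other proteases, 1.98-fold lower for Cela1 and 1.86-fold lower for Cela2a. Cela3b, an elastase-like protease that shares 26.1% of its 31-base words with other genes, nearly all with Cela3a, ranged from 19.31 to 19.64 in LFD, from 15.58 to 19.55 in HFD and from 15.94 to 19.09 in ob/ob mice.

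The carboxypeptidases Cpa1 (chr6:30639218-30645363, plus strand), which removes aromatic and aliphatic residues, and Cpb1 (chr3:20248264-20275733, minus strand), which removes basic residues, gave the narrowest and one of the widest LFD ranges. Cpa1 had rlog values of 19.91, 19.97 and 20.01 in LFD, 19.89, 18.00 and 15.998 in HFD, and 19.44 and 16.41 in ob/ob mice. For Cpa1 each obese mouse was below each LFD mouse, although HFD replicate 1 was only just below the lowest of these. Cpb1 had 20.43, 20.61 and 21.12 in LFD, 21.21, 18.67 and 16.79 in HFD, and 20.13 and 17.11 in ob/ob mice, so that HFD replicate 1 was the highest of the 8.

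**Figure D1:**
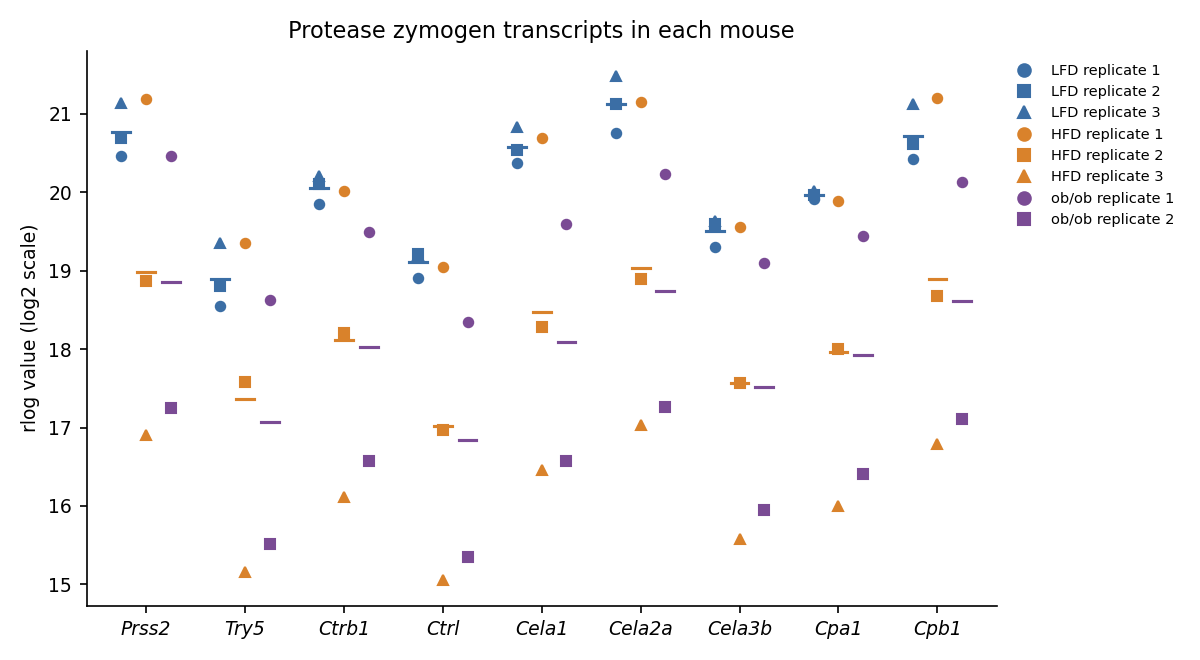
The rlog value (log2 scale, vertical axis) of each of the 9 proteases in each of the 8 mice, with a bar at each group mean; HFD replicate 1 lies with the LFD mice, whereas HFD replicate 2, HFD replicate 3 and ob/ob replicate 2 lie 3.91-, 15.6- and 12.5-fold below the LFD mean over the 9 genes on this scale. As a share of the summed linear values the 9 were 15.4%, 7.43% and 8.34% there. In LFD mice they were 20.3% to 21.2%, so this drop was smaller. Quantile normalization gives genes of equal rank equal values, which removes most of the difference at these top ranks. The means over the 9 were then between 18.60 and 18.93 in all 8 mice.

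The obese groups were therefore heterogeneous and the LFD group was not. Between LFD mice the median SD of the 9 proteases was 0.230, against 2.07 between HFD and 2.14 between ob/ob mice. Over all 15047 genes these medians were 0.226, 0.348 and 0.283, and over 10 other secreted enzymes, which are amylases, lipases and their cofactor, phospholipase and ribonuclease, they were 0.203, 2.02 and 2.12. In LFD mice the SD of the proteases went from 0.0518 for Cpa1 to 0.409 for Try5.

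The order of the levels was taken over all 8 mice and per transcript length, as rlog minus log2 of the length in kb of the transcript with the longest coding sequence. On this scale Prss2 was highest, at 21.06 ± 0.34 (SD, n = 3) for LFD, 19.28 ± 2.14 (SD, n = 3) for HFD and 19.15 ± 2.28 (SD, n = 2) for ob/ob mice. Cela2a followed with a difference to Prss2 of 0.27 ± 0.23 (SD over 8 mice) and was below it in 7 of 8 mice. The next step was larger than its spread, since Cela1 was below Cela2a by 0.63 ± 0.10 in 8 of 8 mice. Cela1 and Ctrb1 were not separated (0.01 ± 0.26, in 5 of 8 mice), and Cela3b was below Ctrb1 by 0.61 ± 0.08 in 8 of 8 mice. From Cela3b through Try5, Cpb1 and Cpa1 to Ctrl, which was lowest, the steps were 0.21 ± 0.27, 0.12 ± 0.26, 0.03 ± 0.27 and 0.10 ± 0.13, and none of these neighbours differed beyond their spread. In the LFD mice alone Try5 was the lowest, at 19.22, with Cpb1, Ctrl and Cpa1 at 19.28, 19.29 and 19.30.

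The comparison of HFD with LFD asks whether diet-induced obesity went with other zymogen levels. With limma, all 9 proteases had a lower mean in HFD, with differences from -1.54 for Try5 to -2.10 for Cela1. After quantile normalization the differences of Prss2, Try5 and Cpb1 were 0.09, 0.11 and 0.07. That scaling gives genes of equal rank equal values. For these top ranks this removes most of the difference, so it does not test the lower rlog. None of the 9 passed an adjusted p of 0.05 (adjusted p between 0.404 for Ctrl and 0.695 for Prss2), none passed an unadjusted p of 0.05, and 0% of the 15047 genes passed the adjusted threshold. Among all genes, 8.35% were lower and 11.5% higher at an unadjusted p under 0.05. With array weights, whose fit stopped before convergence, Ctrl had an adjusted p of 0.0269 in limma, where 6656 genes passed. Without HFD replicate 1 the difference of Ctrl was -3.10, and 2812 genes but no protease had an adjusted p under 0.05. The SE went from 1.37 for Ctrl to 2.53 for Cela2a, and the SD of a protease between HFD mice was 1.95 to 2.21. HFD and LFD mice did not overlap for 1 of 9 proteases, Cpa1, against 12.3% of all genes that were lower without overlap.

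For ob/ob against LFD, the differences went from -1.83 for Try5 to -2.49 for Cela1. Quantile normalization, with the limit given above for top ranks, gave 0.12 for Prss2, 0.09 for Try5 and 0.02 for Cpa1. The rlog differences average unlike mice. The proteases of ob/ob replicate 1 were 0.28 to 0.99 below their LFD means and those of ob/ob replicate 2 were 3.38 to 4.00 below. No protease passed the adjusted or the unadjusted threshold in limma, with adjusted p between 0.416 for Ctrl and 0.702 for Prss2, where 0% of all genes passed the adjusted threshold and 7.18% were lower and 11.6% higher at an unadjusted p under 0.05. Both ob/ob mice were below all LFD mice for 8 of 9 proteases, all but Try5, against 21.8% of all genes. The ob/ob and HFD mice, compared directly, differed by -0.04 for Cpa1 to -0.39 for Cela1, with SE from 1.53 to 2.83 and unadjusted p from 0.861 to 0.985 in limma. In that comparison 0% of all genes had an adjusted p under 0.05, 1.63% were lower and 2.28% higher at an unadjusted p under 0.05, and the median over the proteases, -0.18, was -1.74 without ob/ob replicate 1, -1.17 without HFD replicate 3, 0.87 without HFD replicate 1 and 1.32 without ob/ob replicate 2.

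The obese groups were also combined, as the average of both group means minus LFD. The differences went from -1.68 ± 1.30 (SE) for Try5 to -2.30 ± 1.85 for Cela1. This corresponds to 3.21-fold lower for Try5 and 4.92-fold lower for Cela1 on the rlog scale. After quantile normalization, with the same limit for top ranks, Prss2 and Try5 were at 0.11 and 0.10. None of the 9 passed in limma (adjusted p between 0.288 for Ctrl and 0.611 for Prss2), at 0% of all genes by adjusted p and 10.9% lower and 14.5% higher by unadjusted p. The obese mice lay below the LFD mice without overlap for 1 of 9, Cpa1, against 9.05% of all genes. The median difference was -1.98 for the proteases and 0.04 for all genes. The empirical Bayes step of limma used a trend of the variance on the mean, and the proteases sit at its upper end. Without this trend, Ctrl, Cela1 and Cela2a had unadjusted p of 0.0483, 0.0458 and 0.0471 in limma, with adjusted p of at least 0.197. Without HFD replicate 1, 3326 genes but no protease had an adjusted p under 0.05, and only Ctrl had an unadjusted one, at 0.0269 in limma.

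**Figure D2:**
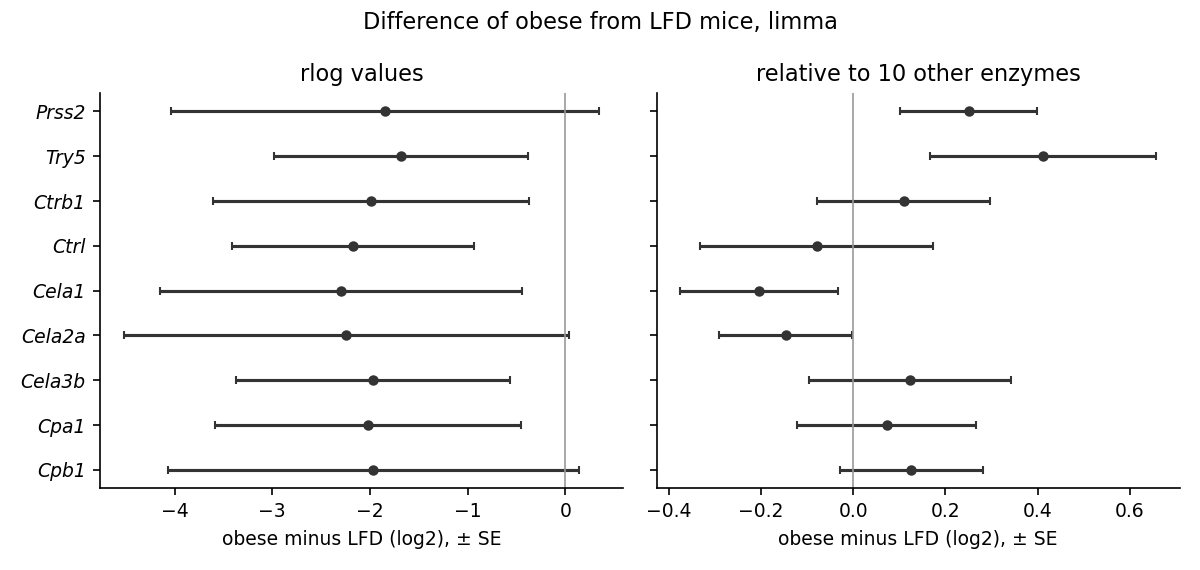
Difference of obese from LFD mice (log2, horizontal axes) with its limma SE for each protease, as rlog values (left) and after subtracting the mean of 10 other secreted enzymes of the same mouse (right). The left differences lie between -1.68 and -2.30, and the right ones lie between -0.20 and 0.41. After quantile normalization, which removes most of the difference at these top ranks, Prss2 and Try5 are at 0.11 and 0.10.

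Within a mouse the proteases kept nearly fixed ratios. Over the 36 pairs, Pearson r across the 8 mice was between 0.981 and 0.999, which is given as a description since all points share their libraries. The SD of the difference between 2 proteases had a median of 0.226 and a highest value of 0.384, while the SD of a single protease over the 8 mice was 1.66 to 1.83. The difference of Cela1 from the mean of the other 8 proteases was 0.60, 0.53 and 0.56 in LFD, 0.52, 0.19 and 0.38 in HFD, and 0.12 and 0.15 in ob/ob mice, so that no obese mouse was as high as an LFD mouse. For Try5 this difference was -1.45, -1.43 and -1.10 in LFD, -0.99, -0.60 and -1.09 in HFD, and -0.97 and -1.04 in ob/ob mice, so that no obese mouse was as low as an LFD mouse. These are the 2 proteases with the largest shifts within the set, and they were picked after the values were seen.

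**Figure D3:**
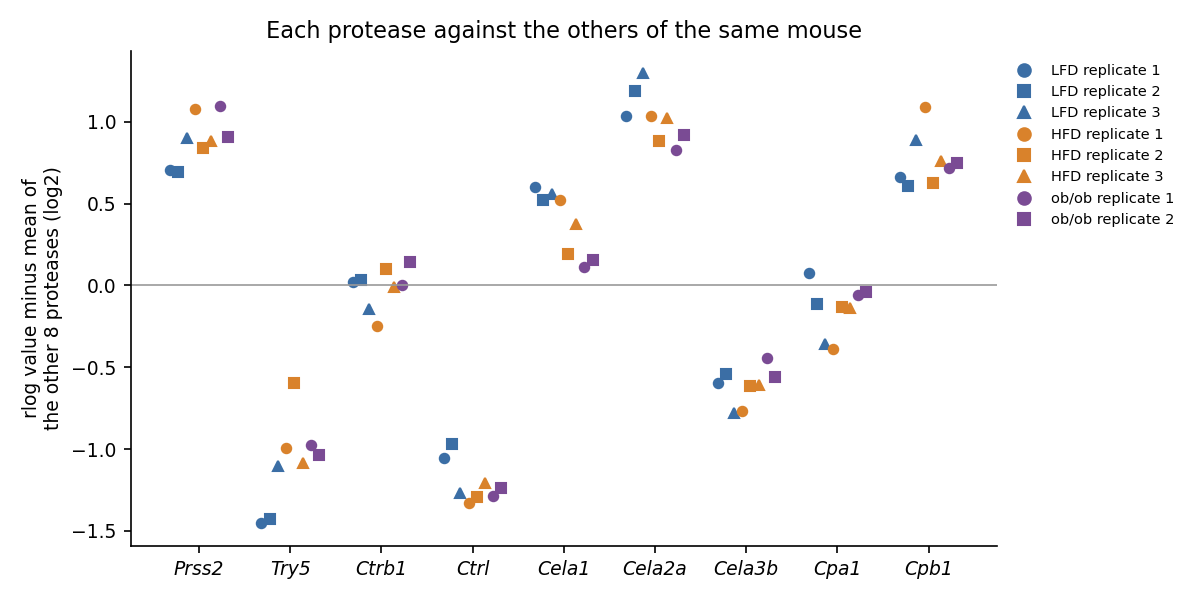
Difference of each protease from the mean of the other 8 in the same mouse (log2, vertical axis), with 1 point per mouse. Each protease but Try5 spans at most 0.49 here, while the level of each spans at least 4.01, and Cela1 lies at 0.12 to 0.52 in obese against 0.53 to 0.60 in LFD mice.

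Measured against 10 other secreted enzymes of the same mouse, the proteases were closer to their LFD values than by rlog. Try5 was at 0.19, 0.34 and 0.56 in LFD, 0.80, 1.13 and 0.62 in HFD, and 0.79 and 0.62 in ob/ob mice, so that each obese mouse was above each LFD mouse. The difference of obese from LFD mice was 0.25 ± 0.15 (SE) for Prss2 and 0.41 ± 0.25 for Try5, both with an adjusted p of 0.199 in limma. It was -0.20 ± 0.17 for Cela1 (adjusted p = 0.265 in limma) and -0.15 ± 0.14 for Cela2a (adjusted p = 0.333), and the other 5 lay between -0.08 and 0.13. With the acinar transcription factors subtracted instead, all 9 were lower in obese mice. Prss2 and Try5 then turned sign, to -0.65 and -0.49, as did Ctrb1, Cela3b, Cpa1 and Cpb1, and Cela1 and Cela2a were at -1.10 and -1.04. None of the 9 passed an adjusted or unadjusted p of 0.05 in any of the 4 relative comparisons as described. With array weights, whose fit stopped before convergence, 5 passed the adjusted threshold for HFD against LFD. By unadjusted p, 1 or 2 passed in some of the comparisons with LFD when genes under a mean rlog of 5 were left out, when the median of the enzymes or the acinar transcription factors were subtracted, and without HFD replicate 3 or ob/ob replicate 2. Of all genes, 0.093% passed the adjusted threshold for obese against LFD mice, and 0.0133% were lower and 23.7% higher by unadjusted p. For the HFD mice alone the adjusted share was 0.0199%, with 0.0133% lower and 11.8% higher by unadjusted p. It was 0.0266% for the ob/ob mice alone, with 0.00665% lower and 9.36% higher, and 0% by each rule between ob/ob and HFD.

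Other protease zymogens of the pancreas had a median difference of obese from LFD mice of -2.09, beside -1.98 for the 9. Without ob/ob replicate 2 they were -1.35 and -1.25. After quantile normalization they were -1.80 and -0.049, as that scaling removes most of the difference at the top ranks of the 9. Of 13 on the list, 12 had a lower mean in obese mice, also after quantile normalization and median centring. An unadjusted p under 0.05 was seen for 4 (Prss3, Gm5771, Ctrc and Cela3a), beside the 10.9% of all genes given above. These 4 had LFD means of 7.54 to 12.20 and SE of 0.87 to 0.92. The 9 had LFD means of 18.90 to 21.13 and, with the variance trend, SE of 1.24 to 2.28, so the calls do not compare the lists. None of the 13 had an adjusted p under 0.05, but 8 had one without HFD replicate 1, where 3326 of all 15047 genes did. Ctrc, chymotrypsin C, a protease that degrades trypsinogen, differed by -2.36 ± 0.90 (SE, adjusted p = 0.161 in limma). Its rlog values were 12.01, 12.16 and 12.44 in LFD, 12.12, 9.95 and 8.06 in HFD, and 11.10 and 8.17 in ob/ob mice, with the same 3 obese mice lowest. Try4 differed by -2.49 ± 1.27 and Cela3a by -2.23 ± 0.87, and 2210010C04Rik, the most abundant of these transcripts, by -2.09 ± 1.62. The exception was 1810009J06Rik, a trypsin-like gene, with 0.15 ± 1.05. The counts without HFD replicate 1 and without ob/ob replicate 1 were 11 of 13 each, and they were 0 without LFD replicate 2, LFD replicate 3, HFD replicate 2 or ob/ob replicate 2.

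Secreted enzymes other than proteases gave a median difference of -2.10 over 10 genes. It was -0.37 after quantile normalization, again with the limit of that scaling for top ranks. Pla2g1b, the pancreatic phospholipase, differed by -2.49 ± 0.83 and Amy2b, an amylase, by -2.21 ± 0.92. In limma these were the 2 of 10 with an unadjusted p under 0.05, against 10.9% of all genes that were lower. More abundant enzymes had similar differences but a larger SE, such as Pnlip with -2.14 ± 2.10 and Amy2a5 with -2.28 ± 7.86. The SE followed the trend of the variance on the mean, so the calls of Pla2g1b and Amy2b do not set them apart. None of the 10 had an adjusted p under 0.05, but 3 had one without HFD replicate 1, where 3326 of all 15047 genes did. The unadjusted count was 6 without HFD replicate 1, 4 without ob/ob replicate 1, 0 without LFD replicate 3 or ob/ob replicate 2, and 1 without each of the other 4 mice. Amy2a5, the most abundant amylase, had rlog values of 23.58, 23.76 and 24.32 in LFD, 23.90, 21.43 and 19.75 in HFD, and 23.02 and 20.03 in ob/ob mice. All 10 enzymes together made up 38.9%, 38.4% and 41.0% of the linear values in LFD, 36.5%, 23.9% and 13.2% in HFD, and 34.9% and 15.0% in ob/ob mice.

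Proteins that hold trypsin in check, activate it or respond to it differed in sign among themselves. Of 11 measured, 2 were lower (Spint1 and Spint2, membrane-bound Kunitz inhibitors) and 3 higher (A2m, Ctsb and F2rl1) in obese mice at an unadjusted p under 0.05, where 10.9% and 14.5% of all genes were. None had an adjusted p under 0.05, but 5 of 11 had one without HFD replicate 1, where 3326 of all 15047 genes did. With median centring or quantile normalization the higher ones were 2, and after quantile normalization 1 was lower. The lower ones were 4 without HFD replicate 1 or ob/ob replicate 1, 1 without LFD replicate 1, HFD replicate 2, HFD replicate 3 or ob/ob replicate 2, and 0 without LFD replicate 2 or LFD replicate 3. Spink1, the trypsin inhibitor that acinar cells secrete with trypsinogen, had rlog values of 14.00, 14.08 and 14.68 in LFD, 14.83, 12.77 and 11.29 in HFD, and 13.70 and 10.92 in ob/ob mice. Its difference between obese and LFD mice was -1.62 ± 0.83 (adjusted p = 0.249 in limma). Serpini2, a serpin of acinar cells and the most abundant of the list, differed by -1.87 ± 1.00 (adjusted p = 0.265 in limma).

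A2m, alpha-2-macroglobulin, which traps proteases, had rlog values of 5.16, 5.24 and 4.47 in LFD, 6.08, 7.03 and 6.74 in HFD, and 7.72 and 7.58 in ob/ob mice. Every obese mouse exceeded every LFD mouse, by 2.17 ± 0.29 (SE) on average, with an adjusted p of 0.0712 in limma. Ctsb, cathepsin B, which can activate trypsinogen, had 11.84, 11.78 and 11.78 in LFD, 11.88, 12.52 and 12.45 in HFD, and 12.68 and 12.88 in ob/ob mice, a difference of 0.73 ± 0.20 (adjusted p = 0.112 in limma). F2rl1, a receptor that trypsin cleaves, differed by 1.05 ± 0.46 (adjusted p = 0.193 in limma).

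For each of the 11, the ratio of Prss2 to it was tested in 5 obese against 3 LFD mice with exact permutations (two-sided, smallest possible p 0.0357). The rlog difference of Prss2 and Spink1 was 6.51 ± 0.08 (SD, n = 3) in LFD and 6.23 ± 0.42 (SD, n = 5) in obese mice, with an exact p of 0.357. That of Prss2 and A2m was 15.81 ± 0.74 (SD, n = 3) in LFD and 11.90 ± 2.18 (SD, n = 5) in obese mice, lower in all 5 obese mice than in any LFD mouse, with an exact p of 0.0357 and an adjusted p of 0.337 over the 11 ratios. The ratio to Ctsb was 8.96 ± 0.37 (SD, n = 3) against 6.45 ± 2.14 (SD, n = 5), with an exact p of 0.107. No ratio passed after adjustment.

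Genes of the zymogen granule and the transcription factors of acinar cells are the remaining parts of this pathway. Of 15 granule and exocytosis genes, 12 had a lower mean in obese mice under all 3 scalings, and 5 (Gp2, Rab3d, Vamp2, Itpr2 and Cckar) had an unadjusted p under 0.05 against 10.9% of all genes, or 4 after quantile normalization. Gp2, the major granule membrane protein, differed by -2.26 ± 0.90, Zg16, a granule lectin, by -2.15 ± 1.02 and Cuzd1 by -2.04 ± 0.95, and Sycn, syncollin, the most abundant, by -1.58 ± 1.20. All 9 acinar transcription factors had a lower mean in obese mice under all 3 scalings, with 4 (Nr5a2, Bhlha15 and Gata4 among them) at an unadjusted p under 0.05. None of these 9 and none of the 15 granule genes had an adjusted p under 0.05 in limma. Without HFD replicate 1, 4 factors and 7 granule genes had one, as did 3326 of all 15047 genes. As a share of the summed linear values the factors were 0.0373%, 0.0309% and 0.0271% among LFD mice, 0.0297%, 0.0406% and 0.0454% among HFD mice, and 0.0387% and 0.0369% among ob/ob mice, each obese mouse lying inside or above the LFD range on that scale. This share rises where the enzymes, a large part of the sum, fall, so it does not test the lower rlog. By mean rlog the factors were at 9.57, 9.37 and 9.54 in LFD, 9.54, 8.28 and 7.57 in HFD, and 9.12 and 7.15 in ob/ob mice. Ptf1a, the factor that maintains acinar enzyme genes together with Rbpjl, had rlog values of 7.96, 8.16 and 8.42 in LFD, 8.45, 6.87 and 4.60 in HFD, and 7.82 and 5.12 in ob/ob mice. The differences between obese and LFD mice were -1.62 ± 0.85 for Ptf1a, -1.63 ± 0.87 for Rbpjl, -2.08 ± 0.81 for Bhlha15, which shapes the secretory apparatus, and -0.94 ± 0.43 for Xbp1, a factor of the secretory pathway and the most abundant of the 9. The 4 acinar factors were 8 without HFD replicate 1 or ob/ob replicate 1, 2 without HFD replicate 3, and 0 without any one of the 3 LFD mice, HFD replicate 2 or ob/ob replicate 2, and the granule genes were 9 without HFD replicate 1 or ob/ob replicate 1 and 1 to 3 without any one of LFD replicates 1 to 3, HFD replicate 2 or ob/ob replicate 2.

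Since the 9 genes varied together, and Ptf1a is known to bind an E-box with a TC-box, the promoters were searched for both motifs as a description of sequence. RefSeq promoters (GRCm38.p6, 250 bases before to 50 after the start) matched 8 of the 9, all but Try5. The E-box CACCTG, on either strand, was in 6 of 8 (Cela1, Cela2a, Cela3b, Cpb1, Ctrl and Prss2) and in 20.2% of 32851 promoters. The TC-box TTTCCC was in 5 of 8 (Cela1, Cela2a, Cpa1, Ctrb1 and Prss2) and in 25.2% of promoters. Both, at any distance from each other, were in Cela1, Cela2a and Prss2 and in 4.9% of promoters. The 250 bases upstream of 3 genes are shown, Prss2 and Cela1 for both motifs and Ctrl for its 2 E-boxes, with CACCTG and TTTCCC of either strand in capitals. They are written in the direction of transcription.
Prss2 promoter, chr6:41521526-41521775, plus strand: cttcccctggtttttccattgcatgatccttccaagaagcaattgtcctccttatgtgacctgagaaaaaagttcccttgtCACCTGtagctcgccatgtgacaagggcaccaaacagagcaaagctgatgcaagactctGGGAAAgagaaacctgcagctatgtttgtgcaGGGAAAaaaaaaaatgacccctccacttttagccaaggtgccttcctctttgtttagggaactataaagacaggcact
Cela1 promoter, chr15:100687921-100688170, minus strand: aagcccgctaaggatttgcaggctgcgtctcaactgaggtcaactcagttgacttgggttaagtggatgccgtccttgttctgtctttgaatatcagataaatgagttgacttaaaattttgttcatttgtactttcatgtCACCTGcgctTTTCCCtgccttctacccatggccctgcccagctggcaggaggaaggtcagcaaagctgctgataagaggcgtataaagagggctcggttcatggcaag
Ctrl promoter, chr8:105933863-105934112, minus strand: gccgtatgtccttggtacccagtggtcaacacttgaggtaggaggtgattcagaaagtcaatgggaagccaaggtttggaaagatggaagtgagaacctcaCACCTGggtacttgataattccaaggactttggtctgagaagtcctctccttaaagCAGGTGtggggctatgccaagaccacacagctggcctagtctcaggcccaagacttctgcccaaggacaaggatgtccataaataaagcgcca
In Cela1 the E-box and the TC-box start at positions -109 and -99 from the start of transcription, and in Cela2a at -218 and -84. In Prss2 the E-box starts at -169 and the TC-boxes at -110 and -78, and in Ctrl the E-boxes start at -149 and -93. Of the 3 promoters with both motifs, these were nearest to each other in Cela1. CACCTG was in all 8 promoters found for the other zymogens listed, and in 3 of 12 for the other enzymes listed. A match of letters does not show binding.

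The genes most like the proteases were ranked by Pearson r with the mean of the 9 over the 8 mice, among 11820 genes with a mean rlog of at least 5. The first 10 included 2210010C04Rik, Pnliprp2, Rnase1, Klk1, Cuzd1, Erp27, Oscp1, Reg1 and Clps, with r from 0.998 to 0.999 for these, and 80 genes had an r above 0.99. Oscp1 is not a secreted enzyme of acinar cells and had rlog values of 7.70, 7.88 and 8.06 in LFD, 7.96, 6.34 and 5.02 in HFD, and 7.47 and 5.43 in ob/ob mice, in which the same 3 obese mice were low. At the other end were Spire1, Clasp1, Trim59, Efnb2 and Tnfaip1, with r from -0.992 to -0.984. Spire1 had 6.13, 5.93 and 5.75 in LFD, 5.88, 6.71 and 7.64 in HFD, and 6.10 and 7.78 in ob/ob mice.

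Proteases of other cells did not share the pattern as a list. Of 20 measured proteases that are not pancreatic zymogens, such as those of mast cells, the endocrine carboxypeptidase Cpe and the plasminogen activators, 4 were higher (Cpe, Cpz, Cpxm1 and Plat) and 2 lower (Prss8 and Cfd) in obese mice at an unadjusted p under 0.05, against 14.5% and 10.9% of all genes. None had an adjusted p under 0.05 in limma, but 6 of 20 had one without HFD replicate 1, where 3326 of all 15047 genes did. The median difference was 0.08, and it went from -0.005 with median centring to 0.30 without ob/ob replicate 1 and 0.38 without LFD replicate 1. The lower ones were 1 without any one LFD mouse, HFD replicate 2 or ob/ob replicate 2, 3 without HFD replicate 1 and 4 without ob/ob replicate 1. Plat, tissue plasminogen activator, differed by 1.28 ± 0.41. Cfd, complement factor D, had rlog values of 8.41, 7.67 and 7.50 in LFD, 5.97, 6.78 and 5.79 in HFD, and 6.31 and 5.15 in ob/ob mice, and differed by -1.91 ± 0.37 (adjusted p = 0.0886 in limma), here with HFD replicate 1 on the side of the other obese mice. Prss8, prostasin, differed by -1.75 ± 0.71 and, unlike the list, did follow the 9 zymogens, with a Pearson r of 0.994 to their mean. Its rlog values were 10.29, 10.25 and 10.50 in LFD, 10.17, 8.80 and 7.21 in HFD, and 9.73 and 7.18 in ob/ob mice. Cpd, carboxypeptidase D and the most abundant, differed by 0.16 ± 0.18.

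Markers of other cell types varied beside the protease levels. Of 10 fibroblast markers, 8 were higher in obese mice at an unadjusted p under 0.05, against 14.5% of all genes, with a mean rlog over the list of 9.52, 9.48 and 9.08 in LFD, 9.91, 10.50 and 10.71 in HFD, and 10.35 and 11.08 in ob/ob mice. Col3a1, the most abundant, differed by 1.68 ± 0.44 and Col1a1 by 2.17 ± 0.40 (adjusted p = 0.0853 in limma), both collagens of the stroma, as is Col1a2 with 1.70 ± 0.36, and Postn, periostin, differed by 1.92 ± 0.22 (adjusted p = 0.0598 in limma). Of 10 macrophage markers, 9 were higher, with a list mean of 9.32, 9.32 and 8.88 in LFD, 9.69, 10.59 and 10.17 in HFD, and 10.34 and 11.07 in ob/ob mice, and with Lyz2, lysozyme, as the most abundant (adjusted p = 0.119 in limma). Adgre1, which encodes F4/80, differed by 1.57 ± 0.23, Fcgr3, an Fc receptor, by 1.56 ± 0.29 and Itgam, an integrin, by 1.44 ± 0.31. By mean rlog both lists were highest in ob/ob replicate 2 and were above every LFD mouse already in HFD replicate 1 and ob/ob replicate 1, the former with a mean of 20.24 over the proteases against 20.08 in LFD mice and the latter 1.51-fold lower than that LFD mean. The counts were 8 and 9 under all 3 scalings, and the fibroblast count was 5 without LFD replicate 3. By adjusted p they were 0 and 0, but 8 and 9 without HFD replicate 1, where 3326 of all 15047 genes passed. Summed on the linear scale, the fibroblast markers were 0.0320%, 0.0275% and 0.0182% of all values among LFD mice, 0.0330%, 0.169% and 0.459% among HFD mice, and 0.0772% and 0.549% among ob/ob mice. The macrophage markers were 0.0317%, 0.0225% and 0.0157% among LFD mice, 0.0307%, 0.194% and 0.211% among HFD mice, and 0.0749% and 0.469% among ob/ob mice, so that on this scale HFD replicate 1 lay inside the LFD range for macrophage markers. Both shares also rise where the enzymes, a large part of the sum, fall.

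The list of 10 ductal markers, which normal ducts and the organoid cells would share, had a mean of 9.49, 9.87 and 9.64 in LFD, 9.90, 10.80 and 10.80 in HFD, and 9.96 and 9.47 in ob/ob mice. By mean rlog it was thus above the LFD range in all HFD mice, most in HFD replicates 2 and 3, and in ob/ob replicate 1, and below it in ob/ob replicate 2. As a share of the summed linear values it was 0.0339%, 0.0380% and 0.0271% in LFD, 0.0350%, 0.245% and 0.409% in HFD, and 0.0635% and 0.243% in ob/ob mice. On this scale ob/ob replicate 2 was as high as HFD replicate 2, and by rlog Spp1 was at 14.06 and 14.05 in them. Every other marker of the list was lower in ob/ob replicate 2. The gap was small for Sox9 (6.87 against 7.03) and larger for others, such as Krt7 (9.39 against 11.52) and Epcam (9.48 against 11.42). The share also rises where the enzymes, a large part of the sum, fall. Of the markers, 3 were higher (Krt7, Spp1 and Tspan8) and 1 lower (Muc1) for the obese mice combined at an unadjusted p under 0.05 in limma, against 14.5% and 10.9% of all genes. For HFD against LFD 6 of 10 were higher (Krt19, Krt7, Krt8, Epcam, Spp1 and Tspan8), where 11.5% of all genes were, and for ob/ob against LFD 1 was higher (Spp1) and 1 lower (Muc1), where 11.6% and 7.18% were. None had an adjusted p under 0.05, but for the obese mice combined 4 had one without HFD replicate 1, where 3326 of all 15047 genes did. By unadjusted p the higher ones were then 1 without LFD replicate 1 and 6 without HFD replicate 1, and the lower one was 0 without LFD replicate 1 or LFD replicate 3. Krt19, a keratin of ducts, had 9.26, 9.95 and 9.33 in LFD, 9.82, 11.26 and 11.47 in HFD, and 10.05 and 8.95 in ob/ob mice. Spp1, osteopontin, was the most abundant of the list and differed by 1.21 ± 0.37, Tspan8, a tetraspanin, by 1.21 ± 0.44 and Muc1, a mucin, by -1.26 ± 0.46. For the obese mice combined, none of 10 islet and 7 endothelial markers and 1 of 8 adipocyte markers (Lep) had such a p. Of the adipocyte markers, 2 were higher without ob/ob replicate 2, 2 lower without ob/ob replicate 1 and 1 lower after quantile normalization, and 1 had an adjusted p under 0.05 without HFD replicate 1. Of the endothelial markers, 1 was higher without LFD replicate 1 or HFD replicate 1. By rlog the islet list differed in sign between the groups, with 6 of 10 (Ins1, Ins2, Ppy, Iapp, Chga and Pcsk2) higher by unadjusted p and a median of 1.215 for ob/ob against LFD, where 11.6% of all genes were higher, and none by unadjusted p, 9 of 10 below LFD and a median of -0.45 for HFD against LFD. Compared directly with HFD mice, the same 6 genes were higher in ob/ob mice by unadjusted p, against 2.28% of all genes, and none by adjusted p in limma. The share of the islet list in the summed linear values was 0.0215%, 0.0348% and 0.0138% in LFD, 0.0200%, 0.0456% and 0.0724% in HFD, and 0.108% and 0.171% in ob/ob mice. Such a share rises where the enzymes, a large part of the sum, fall, so it does not test the sign by rlog. On that scale, with the same limit, the adipocyte and endothelial lists were also above every LFD mouse in each obese mouse but HFD replicate 1. Their mean rlog was 7.18 and 7.71 in LFD, 7.31 and 7.90 in HFD, and 7.24 and 7.69 in ob/ob mice. For the obese mice combined, quantile normalization gave 3 higher and 1 lower islet markers, and without LFD replicate 2 or ob/ob replicate 2 the higher ones were 4 and 2, and 1 was lower without HFD replicate 1 or ob/ob replicate 1. Ins2, insulin and the most abundant islet marker, had 11.62, 12.32 and 11.65 in LFD, 12.10, 11.35 and 11.11 in HFD, and 13.84 and 12.42 in ob/ob mice. The hormone genes Sst, Iapp and Ppy differed by -0.84 ± 0.42, 0.63 ± 0.35 and 0.61 ± 0.37. Pecam1, the most abundant endothelial marker, differed by 0.05 ± 0.22, and Cdh5, Vwf and Tek by 0.51 ± 0.41, 0.48 ± 0.28 and -0.36 ± 0.33. Of the adipocyte markers, Fabp4, the most abundant, differed by -0.17 ± 0.31, Lep, which encodes leptin, by 1.25 ± 0.30, Retn by -0.68 ± 0.38 and Cidec by 0.40 ± 0.39. The part of the cell types of these lists in the protease levels was not tested.

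**Figure D4:**
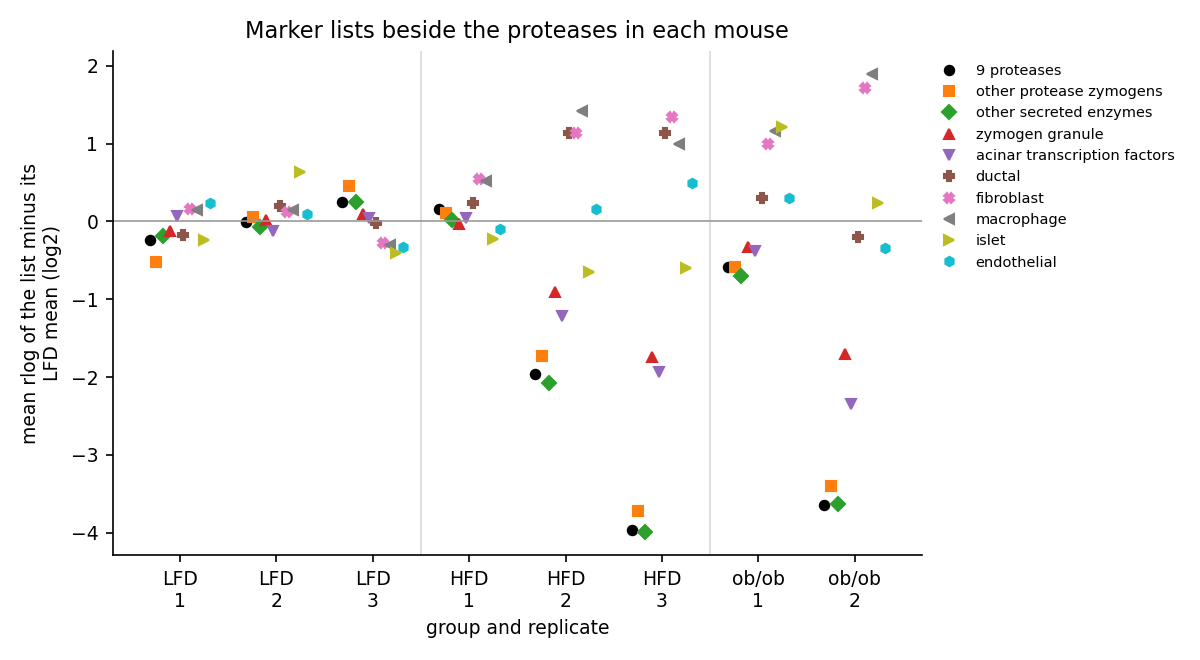
Mean rlog of each gene list minus its mean over the 3 LFD mice (log2, vertical axis) in each mouse (horizontal axis), with 1 symbol per list. The 9 proteases and the other secreted enzymes lie together in every mouse, 15.6-fold below the LFD mean in HFD replicate 3 for the proteases. The fibroblast and macrophage lists lie above 0 in all 5 obese mice. Quantile normalization removes most of the difference at the top ranks and brings the proteases of the 8 mice to means between 18.60 and 18.93.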

How the data were processed

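RNA-Seq values of 8 mice were analysed, grouped by the diet or genotype in the sample labels. Per the study's methods and the submitters' processing notes, the authors checked paired-end reads of 150 bp (RIN > 7) with FastQC, ran Salmon 0.11.3 on Gencode M18 (GRCm38.p6), summed transcripts per gene with tximport and deposited rlog values of DESeq2 1.22.2, which are on the log2 scale. The filter that left 15047 genes is not described in the sources used here, and rlog shrinks differences of genes with few reads. Counts were not used, so the depth of each mouse is unknown and no count test was run. Salmon divides reads of similar transcripts by probability.

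Group differences of all 15047 genes were fitted by limma 3.58.1 (R 4.3.3), with group means over 8 mice and a trend of the variance, and adjusted by Benjamini-Hochberg. The relative comparisons subtracted the mean of 10 secreted enzymes in each mouse and used the same fit. Other steps used Python 3.11.15 with SciPy 1.17.1. Permutations of 3 against 3 and 3 against 2 mice cannot go below 0.1 and 0.2 and were not used. On simulated data for HFD against LFD over 15047 genes, some genes were changed by 2, 4, 8 and 16 residual SDs. Of these, 2%, 34%, 98% and 100% were called, with 11 false calls. Each gene was drawn independently, with the same SD in all groups. The median SD of the proteases was 0.230 in LFD and 2.07 in HFD mice, so these shares do not hold for them.

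The members and lists were chosen with earlier results of these data known. Named genes are the 9 proteases, in each list the 3 with the largest difference between obese and LFD mice and the most abundant (highest mean rlog, not corrected for length), and the 10 highest and 5 lowest in likeness. Genes that make up a count of at most 10, as well as Krt19 and 1810009J06Rik, were named after their values were seen. Replicates are different mice. Mitochondrial genes were not analysed here. A few items that the rule names or the counts hold are not reported here. Coordinates and transcript sequences are those of Gencode M21 (GRCm38), and 150 of 150 genes looked up were found.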

Additional observations from a re-analysis of the deposited data

How the results depend on the processing

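Of 396 alternative values of single proteases in the 3 comparisons with LFD, 387 kept their direction and their side of the threshold. Quantile normalization gave medians over the 9 of -0.045 (HFD against LFD), -0.089 (ob/ob against LFD) and -0.049 (obese against LFD), and turned Prss2 to 0.091, 0.12 and 0.11, Try5 to 0.11, 0.085 and 0.095, Cpb1 to 0.072 (HFD) and Cpa1 to 0.017 (ob/ob). Quantile normalization gives genes of equal rank equal values, which for these top ranks removes most of the difference. With only the groups compared, 1 gene (HFD) and 38 genes (ob/ob) had an adjusted p under 0.05, which for obese against LFD uses all mice anyway. Array weights, which stopped before convergence, gave 6656 genes, 1 protease (Ctrl) and 4 proteases by unadjusted p for HFD, and 4286 genes and 1 protease by unadjusted p for obese mice. Without the trend, 3 proteases had an unadjusted p under 0.05 for obese mice.

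For the values relative to other enzymes, array weights gave 5 proteases by adjusted and 5 by unadjusted p (HFD), and genes with a mean rlog of at least 5 gave 1 by unadjusted p for HFD and 1 for obese mice. With the median of the enzymes subtracted, the medians were -0.13 (HFD), -0.000518 (ob/ob) and -0.057 (obese), with 1 protease by unadjusted p for ob/ob and 2 for obese mice, and Ctrb1, Cela3b, Cpa1 and Cpb1 turned to -0.057, -0.043, -0.094 and -0.040. With the acinar transcription factors subtracted, the medians were -0.91, -0.68, 0.15 (ob/ob against HFD) and -0.79, with 1 protease by unadjusted p for HFD and 2 for obese mice, and Prss2, Try5, Ctrb1, Cela3b, Cpa1 and Cpb1 turned to -0.65, -0.49, -0.79, -0.77, -0.82 and -0.77. The cause of these changes was not tested.

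Leaving out 1 mouse gave 0 to 2812 genes with an adjusted p under 0.05 for HFD against LFD, 0 to 89 for ob/ob against LFD, 0 to 1 for ob/ob against HFD and 0 to 3326 for obese against LFD. Without HFD replicate 1 the genes were 2812, 89 and 3326. Leaving out an ob/ob mouse leaves 1 mouse in that group, so that the spread comes from the other groups. This limit holds for all counts given here without ob/ob replicate 1 or without ob/ob replicate 2. Proteases with an unadjusted p under 0.05 were 0 to 1 for HFD and for obese mice (Ctrl, without HFD replicate 1), and, relative to other enzymes, 0 to 1 for HFD and for obese mice, in both without HFD replicate 3 and without ob/ob replicate 2 (for obese mice Try5 and Prss2). The medians over the 9 ranged from -2.97 to -0.95 (HFD), from -3.57 to -0.56 (ob/ob) and from -2.76 to -1.25 (obese), and turned sign for ob/ob against HFD, from -1.74 to 1.32. Relative to other enzymes, Ctrl ranged from -0.16 to 0.0093, turning without LFD replicate 2, and Cpa1 from -0.030 to 0.14, turning without LFD replicate 3. By Spearman rho, 5 of the 10 most similar genes were among 141 that tied.

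The replicate number was not taken to pair the mice, as the correlations of same-numbered LFD and HFD mice were -0.06, 0.11 and -0.28 and those of LFD and ob/ob mice -0.10 and 0.13, although those of HFD and ob/ob mice were 0.59 and 0.30. With it as a block, 0 genes had an adjusted p under 0.05, no call changed, and the medians were -1.95 for HFD, -2.52 for ob/ob and -2.22 for the obese mice against LFD, and -0.65 for ob/ob minus HFD, which was -0.18 without the block.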
